A study of Homo sapiens with 4 samples.

Results

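Mitochondrial ribosomal protein genes were followed in VCaP cells, an established human prostate cancer line, after transfection with a non-targeting siRNA (siNTC) or an siRNA against ZBTB7A (siZBTB7A), which encodes a zinc finger transcriptional repressor. All cells were grown in medium with 10% serum, and total RNA was made into stranded libraries. The members are the protein-coding genes whose symbols start with MRPL or MRPS, matched by Ensembl identifier. They number 78 of the 60308 gene identifiers in each count table, 49 with MRPL symbols (large subunit) and 29 with MRPS symbols (small subunit). Each group had 2 count tables, and the labels do not say whether these came from separate cultures.

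Mitochondrial ribosomes translate the few proteins encoded by mitochondrial DNA, which are core parts of the respiratory chain. Their RNA is made in the mitochondrion, whereas all their proteins are encoded in the nucleus, made in the cytosol and imported. Some of these proteins descend from bacterial ribosomal proteins and others are found only in mitochondria. Promoters of such genes are known to carry sites for ETS factors, NRF1 and YY1.

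RefSeq promoter windows (250 bases before to 50 after a start, GRCh38.p14) were found for 69 of the 78 members. The letters CCGGAAG, the core of an ETS site, were present on either strand in 30 members (43.5%), against 12.2% of all 27305 genes with such windows and 16.5% of the 15843 coding ones. AAGATGGC, the core of a YY1 site, was present in 21 members (30.4%), against 3.52% of all genes and 4.66% of coding genes. Of the YY1 matches, 16 lay at or after the start and on the strand of the gene. GCGCATG, part of an NRF1 site, was present in 7 members (10.1%), against 5.30% of all genes and 6.82% of coding genes. CCAAT was present in 23 (33.3%), against 39.7% of all genes and 42.1% of coding genes. A gene with several listed starts counted as having the letters if any window did. Counted over the first start alone, the ETS letters stood in 40.6% of members and 10.6% of genes, and the YY1 letters in 29% and 3.0%. Counted over all 85 member windows, the shares were 38.8% and 27.1%. These letters describe the windows and do not show binding.

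The stretches below, free of annotated exons, show the promoters of 2 members past the test of the 2 libraries and examples of the ETS letters. MRPS25 and MRPL57 passed it and hold none of the ETS, NRF1 or YY1 letters in the stretch shown, as do many members that did not pass, MRPL11 and MRPS6 among them. MRPL3, MRPL58, MRPS18A and MRPS31 were picked because they hold the ETS letters, in capitals, so the shown sequences give no comparison of letters with calls. All are written 5′ to 3′ on the strand of the gene.
MRPS25 (chr3:15065336-15065435, minus strand): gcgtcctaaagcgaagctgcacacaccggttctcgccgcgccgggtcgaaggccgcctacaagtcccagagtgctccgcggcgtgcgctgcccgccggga
MRPL57 (chr13:21176603-21176644, plus strand): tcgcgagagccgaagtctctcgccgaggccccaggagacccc
MRPL3 (chr3:131502984-131503091, minus strand): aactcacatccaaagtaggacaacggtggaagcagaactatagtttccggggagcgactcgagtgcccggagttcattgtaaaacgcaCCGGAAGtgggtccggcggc
MRPL58 (chr17:75012550-75012669, plus strand): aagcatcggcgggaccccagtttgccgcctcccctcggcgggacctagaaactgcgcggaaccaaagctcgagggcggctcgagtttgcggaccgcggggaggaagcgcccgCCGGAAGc
MRPS18A (chr6:43687792-43687911, minus strand): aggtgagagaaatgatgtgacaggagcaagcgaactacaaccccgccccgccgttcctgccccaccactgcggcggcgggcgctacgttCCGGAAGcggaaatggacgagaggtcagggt
MRPS31 (chr13:40771191-40771310, minus strand): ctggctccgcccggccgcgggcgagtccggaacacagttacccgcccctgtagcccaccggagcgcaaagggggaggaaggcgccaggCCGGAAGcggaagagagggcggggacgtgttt
The median fold was 1.026 over the 30 tested members with the ETS letters and 1.035 over the 38 without. For the YY1 letters it was 1.052 over 20 members and 1.023 over 48.

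The tables held 5556061 to 5927656 reads counted in genes. Within a group they differed by no more than read sampling: chi-square per degree of freedom over genes was 0.993 in siNTC and 0.995 in siZBTB7A, and 3.5 to 3.64 between groups. The 2 tables of a group were therefore counted as 1 library. A p-value below compares 2 libraries and not the conditions, there is no replicate check, and each fold carries a 95% interval for counting error only. Reads of ZBTB7A itself were 90 and 115 in siNTC and 70 and 74 in siZBTB7A, a fold of 0.743 (0.596 to 0.924) that missed the threshold (edgeR adjusted p = 0.0969). Of 10 luminal prostate markers all were detected, and their summed level was 9995 to 10618 CPM, the reads of a gene per 1e6 TMM-scaled gene reads. Lists for basal, fibroblast, leukocyte and endothelial cells summed to at most 2.17 CPM in any table. Fewer cells with a transcript and less transcript per cell cannot be told apart in bulk RNA.

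Of the 77 tested members, 3 were higher in the siZBTB7A library and 0 were lower at an edgeR adjusted p under 0.05. Over all 12848 tested genes, 2.25% were higher and 2.72% lower (4.97% in either direction), so the members' share of calls was near the background. At an unadjusted p under 0.05, 12 members were higher and 2 lower, against 9.02% and 8.9% of all tested genes. Exact binomial tests on the summed reads called 3 higher and 0 lower. DESeq2 called 0, but gave an adjusted p for only 14 of the members.

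MRPS25 encodes mS25, a small subunit protein found in mitochondrial ribosomes and not in bacterial ones. It (ENSG00000131368) had 408 and 500 reads in siNTC and 489 and 522 in siZBTB7A, or 70.5, 83.6, 89.4 and 92.4 CPM. Both siZBTB7A values exceeded both siNTC values, and the lower siNTC table stood well below the other. The fold was 1.178 (1.076 to 1.290), with a log2 fold of 0.24 ± 0.07 (SE) and an edgeR adjusted p of 0.0178. Without siNTC replicate 1 the log2 fold was 0.12 (adjusted p = 0.523). Its exons overlap those of NR2C2 on the other strand, and 8.36% of the reads at the gene lay on that strand.

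MRPL57 encodes mL63, a large subunit protein specific to mitochondria. It (ENSG00000173141) had 302 and 306 reads in siNTC and 340 and 355 in siZBTB7A, or 52.2, 51.2, 62.2 and 62.8 CPM. The groups did not overlap, and the tables of each group lay close together. Its fold was 1.210 (1.083 to 1.351; edgeR adjusted p = 0.0225).

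MRPL1 encodes uL1m, whose bacterial counterpart forms the mobile stalk where spent tRNA leaves. It (ENSG00000169288) had 228 and 248 reads in siNTC and 265 and 280 in siZBTB7A, or 39.4, 41.5, 48.5 and 49.5 CPM. Again the groups did not overlap. The fold was 1.212 (1.069 to 1.373), and the edgeR adjusted p of 0.0497 lay just inside the threshold. None of these 3 calls held in every run with 1 table left out. Such a run leaves fewer reads in 1 group, so calls near the threshold are easily lost. Across these runs the fold was 1.198 to 1.219 for MRPL57 and 1.179 to 1.244 for MRPL1. For MRPS25 it ran from 1.085 to 1.290.

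**Figure D1:**
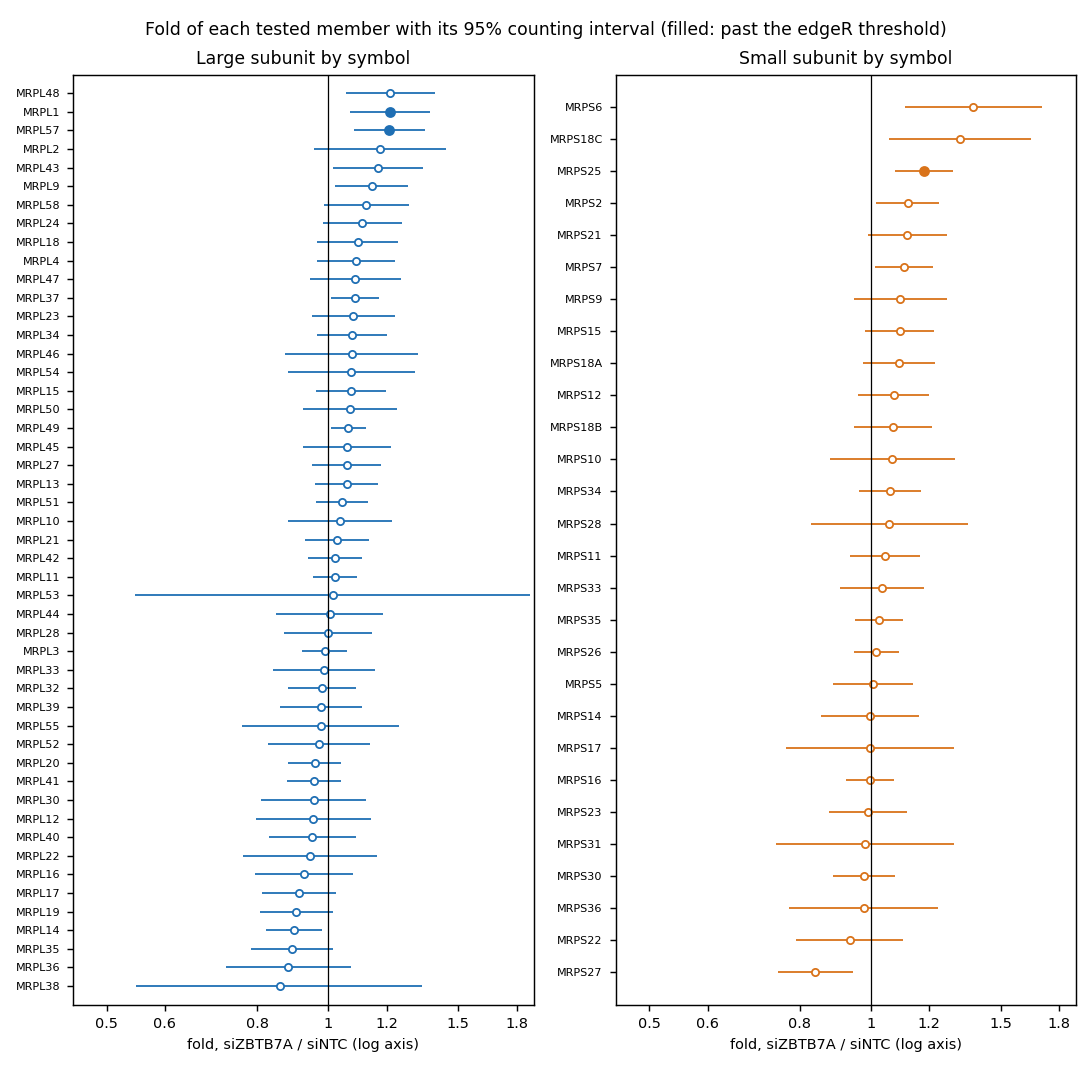
Fold of each of the 77 tested members, siZBTB7A over siNTC, on a log axis, with 95% counting intervals as lines; large subunit symbols are on the left and small subunit symbols on the right, and filled points passed the edgeR threshold. Most intervals cross 1; the 3 filled points are MRPL1, MRPL57 and MRPS25.

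Several members had larger or similar folds with fewer reads. MRPS6, the small subunit protein bS6m, had 73 and 84 reads in siNTC and 97 and 107 in siZBTB7A. All siZBTB7A values were the higher, and the fold of 1.375 (1.111 to 1.704) was the highest of the tested members, with an edgeR adjusted p of 0.0570. Of the exon bases of MRPS6, 9.61% are shared with SLC5A3 and AP000317.2 on the same strand. MRPS18C, which encodes bS18m, had 74, 75, 79 and 107 reads, with 1 siZBTB7A table close to the siNTC pair. Its fold was 1.321 (1.059 to 1.650; edgeR adjusted p = 0.137), and 11.1% of the reads at the gene lay on the other strand. MRPL48, or mL48, had 187, 194, 227 and 210 reads and a fold of 1.214 (1.056 to 1.396; edgeR adjusted p = 0.0881).

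In the other direction, MRPS27 was the lowest. It encodes mS27, a pentatricopeptide repeat protein of the small subunit, and had 311 and 335 reads in siNTC against 251 and 262 in siZBTB7A. The groups did not overlap, and the fold was 0.840 (0.747 to 0.945; edgeR adjusted p = 0.0624). Without TMM scaling it was the member that passed the threshold (log2 fold -0.29, edgeR adjusted p = 0.0219). MRPL14, encoding uL14m at the subunit interface, was the other member whose interval lay below 1, with 550 and 560 reads in siNTC and 470 and 473 in siZBTB7A, a fold of 0.899 (0.823 to 0.981). MRPL36, the small zinc-binding protein bL36m, had 120, 115, 100 and 96 reads and a fold of 0.883 (0.726 to 1.072). MRPL35 had 278, 258, 196 and 256 reads, of which only the first siZBTB7A value lay apart from the others, and a fold of 0.892 (0.786 to 1.013).

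**Figure D2:**
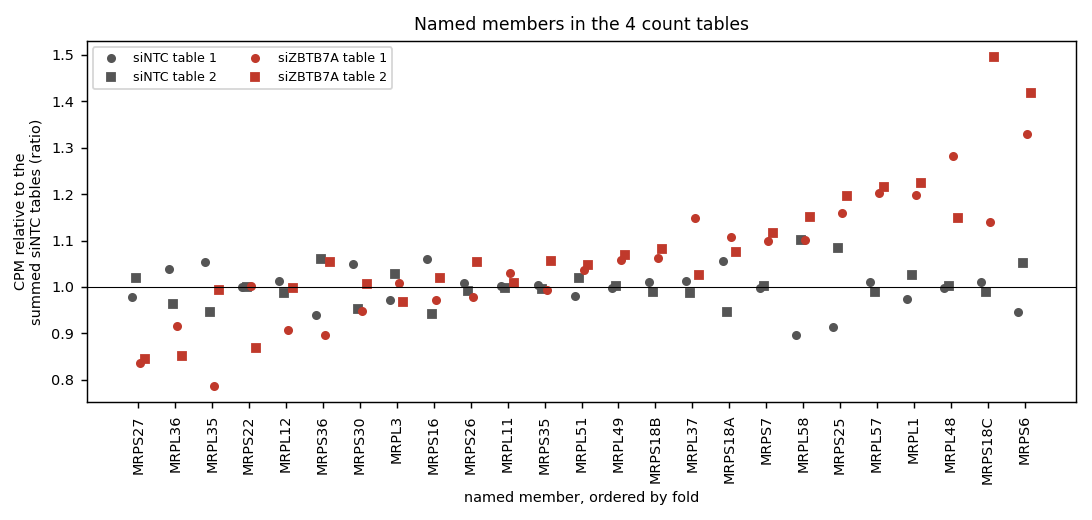
CPM of the 25 tested named members in each of the 4 count tables, divided by the value in the summed siNTC tables and ordered by fold; grey marks siNTC, red siZBTB7A, circles replicate 1 and squares replicate 2. Both red points lie above both grey ones for 13 members, among them MRPL57, MRPL1 and MRPS6, and below them for 2, MRPS27 and MRPL36. Of all genes with 100 or more summed reads, 24.1% lay above and 23.6% below in this way. Some of the members shown were named for their calls or folds, so their share cannot be compared with that of all genes.

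The members as a whole lay slightly above the other genes. Their median fold was 1.037 (log2 0.05), against 1.001 over all tested genes, and 48 of the 77 (62.3%) were above 1 against 50.2% of all tested genes. The lower and upper quartiles of the members' folds were 0.978 and 1.088. Summed member reads were 46935 in siNTC and 45943 in siZBTB7A, a fold of 1.036 (1.023 to 1.049) after scaling, or 0.402% and 0.407% of gene reads. Members lay 0.052 above all tested genes in median log2 fold. Leaving out the TMM factors shifts all folds alike and so cannot change this difference. Under a correction for transcript GC content and length, of which 5 forms were run and 4 were chosen after the data were seen, this difference changed sign with the form. The form run first gave -0.0054 for members and 0.020 for all genes, and the same with a median-length transcript gave 0.0043 and 0.018. In the other 3 forms the members lay above all genes, at 0.040 against 0.0040, 0.030 against 0.0012, and 0.021 against -0.011. The form run first called 7 members, 3 higher and 4 lower, against 6.77% of all tested genes. MRPL41, encoding mL41, was lower in all 5 forms, with log2 folds from -0.39 to -0.29 and edgeR adjusted p from 4.99e-07 to 7.9e-04. Without correction it had 594, 575, 510 and 545 reads and a fold of 0.955 (edgeR adjusted p = 0.629). The fall of MRPL41 thus appears only after correction. Its transcript has 71.9% GC, the highest of the members. The highest bin of GC content among all tested genes had a median of 66.5% and a median log2 fold of 0.086. How well the correction holds at the GC content of MRPL41 was not tested.

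Intervals lay above 1 for 12 of the 75 members with 100 or more summed reads and below 1 for 2, against 9.28% and 9.23% of all genes with that many reads. A fold of at least 1.1 was seen in 14 of the 75 (18.7%) and a fall of that size in 5 (6.67%). The same limits were passed by 19.5% and 18.8% of all genes with that many reads. For 6198 nuclear coding genes between the 10th and 90th percentile of the members' summed reads (350.6 to 2363.8) the shares were 17.2% and 15.8%. The members' own shares include members outside that range. Both siZBTB7A tables exceeded both siNTC tables for 29 of the 75 members and lay below for 8, where 24.1% and 23.6% of all such genes did so. Log2 folds of the members spread with an SD of 0.13, of which counting alone would give 0.10. For the 6198 genes of the narrower range of reads the SD was 0.15, with 0.10 from counting.

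By symbol, the large subunit had a median fold of 1.026 over 49 tested genes and the small subunit 1.051 over 28. MRPS18A (mL66) and MRPS30 (mL65) are proteins of the large subunit, and MRPS36 is a component of the oxoglutarate dehydrogenase complex. Assigned by position in the ribosome, the small subunit had 25 tested genes and a median of 1.058. Proteins with a bacterial homolog had medians of 1.009 in the large subunit (30 genes) and 1.073 in the small (15 genes). Those specific to mitochondria had 1.061 (21 genes) and 1.021 (10 genes). These classes follow the structural names. MRPS18A (mL66) and MRPS18B (mS40) thus count as specific to mitochondria, and their paralog MRPS18C (bS18m) as having a bacterial homolog. The order of the 2 classes was opposite in the 2 subunits, and this difference was not tested. The 3 MRPS18 paralogs, which occupy different places in the ribosome, all had folds above 1. Beside MRPS18C at 1.321, MRPS18A had 323, 299, 320 and 321 reads and a fold of 1.091 (0.975 to 1.220), and MRPS18B 263, 266, 261 and 275 reads and a fold of 1.072 (0.949 to 1.211). MRPS30 had a fold of 0.978 (0.889 to 1.076) and MRPS36 one of 0.977 (0.773 to 1.233).

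The members named for having the most reads in their subunit had folds from 0.988 (MRPL3) to 1.178 (MRPS25). The intervals of MRPS25, MRPS7, MRPL49 and MRPL37 lay above 1, and those of the others so named included 1. MRPL49, encoding mL49, had the most reads, 1273 and 1322 in siNTC and 1277 and 1333 in siZBTB7A, and a fold of 1.064 (1.008 to 1.124; edgeR adjusted p = 0.192). MRPL11, whose bacterial counterpart lies at the site where translation factors bind, had 831, 854, 806 and 817 reads and a fold of 1.019 (0.952 to 1.092). MRPS26 had 821, 833, 752 and 837 reads and a fold of 1.017 (0.948 to 1.090). MRPL37, or mL37, had 703, 709, 754 and 696 reads and a fold of 1.087 (1.009 to 1.170; edgeR adjusted p = 0.198). MRPL51 and MRPS35, specific to mitochondria, had folds of 1.043 (0.962 to 1.130) and 1.026 (0.952 to 1.105). MRPL3, encoding uL3m near the peptidyl transferase centre, had 756, 826, 742 and 735 reads and a fold of 0.988 (0.920 to 1.061).

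MRPL12, which forms the factor-binding stalk and is also known to bind the mitochondrial RNA polymerase, had a fold of 0.954 (0.797 to 1.141), though 68.2% of its exon bases are shared with another gene on its strand. MRPL58, a peptidyl-tRNA hydrolase built into the large subunit, had 192, 244, 223 and 241 reads and a fold of 1.126 (0.986 to 1.286). Among genes mutated in inherited respiratory chain disease, MRPS7 had a fold of 1.108 (1.012 to 1.214; edgeR adjusted p = 0.193), MRPS16 one of 0.996 (0.924 to 1.074) and MRPS22 one of 0.935 (0.792 to 1.104).

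Levels per length ranged widely. On the scale of CPM per kilobase of transcript, over all 4 tables, the large subunit ran from 1.77 to 141.9 (median 35.6) and the small from 1.36 to 125.7 (median 22.7). MRPL20 was the highest and MRPS24 the lowest. MRPS24 had 6, 6, 4 and 6 reads and was not tested. Reads shared by more than 1 gene are left out of such counts, and 23.2% of its exon bases are shared with URGCP-MRPS24, a readthrough gene on the same strand. The 7 members with over 20% of exon bases shared on their strand had a median of 5.61, and the 62 with none shared had 36.6. With the longest principal transcript in place of the one of median length, those medians were 5.61 and 30.2. A further 34 members, some of them the same, have a named pseudogene, whose near-identical reads may also be lost. Low levels of such members are therefore uncertain.

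**Figure D3:**
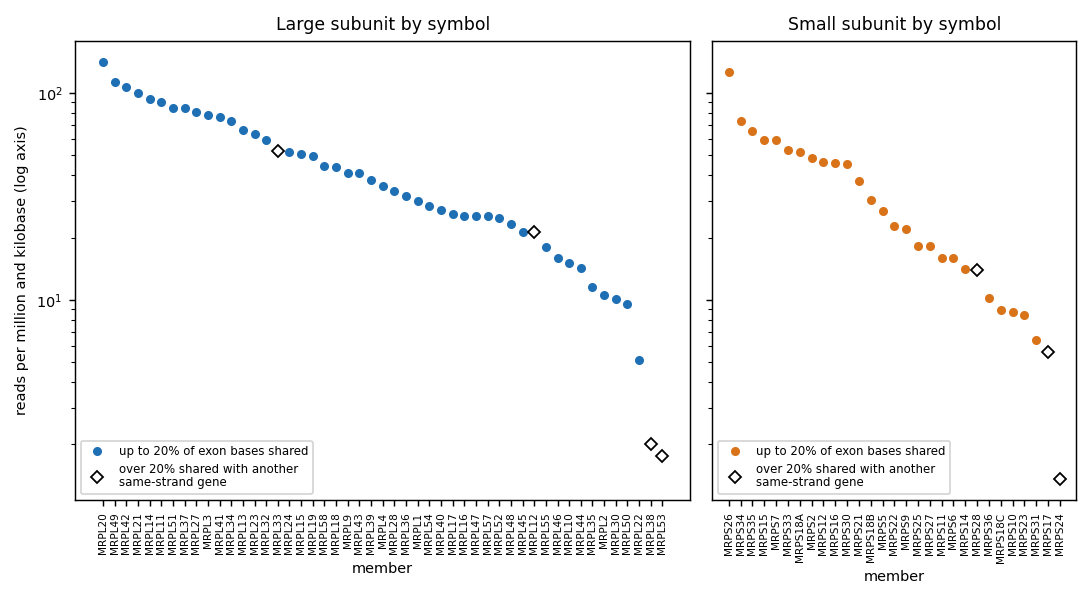
CPM per kilobase of transcript (log axis) of all 78 members over the 4 tables, ordered within each subunit by symbol; open diamonds are the 7 members with over 20% of exon bases shared with another gene on the same strand. MRPL38, MRPL53 and MRPS24, the lowest, are all diamonds.

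Transcript features moved with the folds across all genes. The median log2 fold of all tested genes went from -0.06 in the lowest of 20 bins of GC content to 0.09 in the highest. By length it went from 0.04 for transcripts near 1112 bases to -0.11 in the longest bin. Shorter transcripts did not lie higher: the median was -0.0029 near 533.5 bases and 0.029 near 818 bases. Members had a median transcript length of 1286 bases against 2798 for all tested genes, and similar GC content (49.1% and 49.1%).

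**Figure D4:**
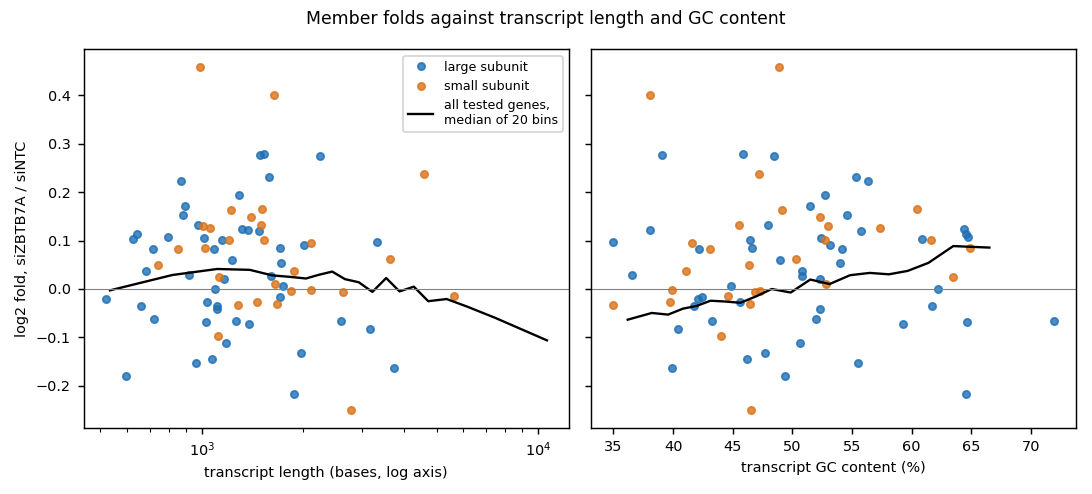
Log2 fold of each tested member against transcript length (log axis, left) and GC content (right), with the median of all tested genes in 20 bins as a black line. The line falls to -0.11 for the longest transcripts and rises with GC content from -0.06 to 0.09, and the members scatter around it.

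Of the 78 members, 17 (21.8%) start within 1000 bases of a coding gene read in the opposite direction, against 7.37% of coding genes. MRPS11 and MRPL46 face each other with 34 bases between their starts, and had folds of 1.044 (0.936 to 1.164) and 1.075 (0.873 to 1.325). MRPL57 faces SKA3, a kinetochore gene, at 43 bases. There the partner had a fold of 0.95 (0.805 to 1.120) where MRPL57 had 1.210. MRPS18C faces HELQ, a DNA helicase, whose fold was 0.814 (0.525 to 1.253) over 92 reads. Among the partners that were tested, 0 passed the edgeR threshold, against 4.97% of all tested genes in either direction. With at most 17 partners, this count does not set them apart from other genes.

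Other genes of mitochondrial translation were taken from 4 lists of 60 genes in all. Of these, 0 passed the edgeR threshold, where 2.25% of all tested genes were higher and 2.72% lower. At an unadjusted edgeR p under 0.05, 5 of the 60 were higher and 3 lower, against 9.02% and 8.9% of all tested genes. DESeq2 called 0 of the 13 to which it gave an adjusted p. The 5 ribosomal proteins with other symbols had a median fold of 1.081, with 629 reads in siNTC and 682 in siZBTB7A for GADD45GIP1 (1.147, 1.028 to 1.281) and a fold of 1.081 (0.987 to 1.184) for DAP3, a GTP-binding protein of the small subunit. CHCHD1 had a fold of 1.084 (0.95 to 1.236), PTCD3 one of 1.036 (0.970 to 1.107) and AURKAIP1 one of 0.998 (0.935 to 1.066). The 17 translation factors had a median of 0.972, with GUF1, a factor that moves the ribosome back, at 0.866 (0.773 to 0.969). The 26 assembly factors had a median of 1.026, with RBFA, which helps mature the small subunit RNA, at 1.345 (1.072 to 1.691). For the 12 genes of mitochondrial transcription and RNA processing it was 1.044, with the polymerase POLRMT at 1.150 (1.020 to 1.297) and TFAM, which packages mitochondrial DNA, at 1.038 (0.957 to 1.126).

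Cytosolic ribosomal protein genes, which are read far more deeply, had a similar median fold of 1.052. Of these, 32 of 82 passed the threshold upward and 0 downward, against 2.25% and 2.72% of all tested genes. The cytosolic set's median of 8224 summed reads, against 1015 for the members, gives narrower intervals. For complex I subunits, part of the chain whose core the mitochondrial ribosome makes, the median was 1.034 and 3 of 36 passed upward. The RNAs of the mitochondrial ribosome were MT-RNR1, of the small subunit, at a fold of 1.033 (1.026 to 1.041), and MT-RNR2, of the large, at 1.228 (1.226 to 1.230). MT-RNR2 held 152462 to 187525 CPM, so that its change alone alters read totals. Under the GC and length correction MT-RNR1 lay above 1 in 3 forms (1.025 to 1.047) and below 1 in 2 (0.960 to 0.982), so its direction depends on the form, and MT-RNR2 ran from 1.112 to 1.245.

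**Figure D5:**
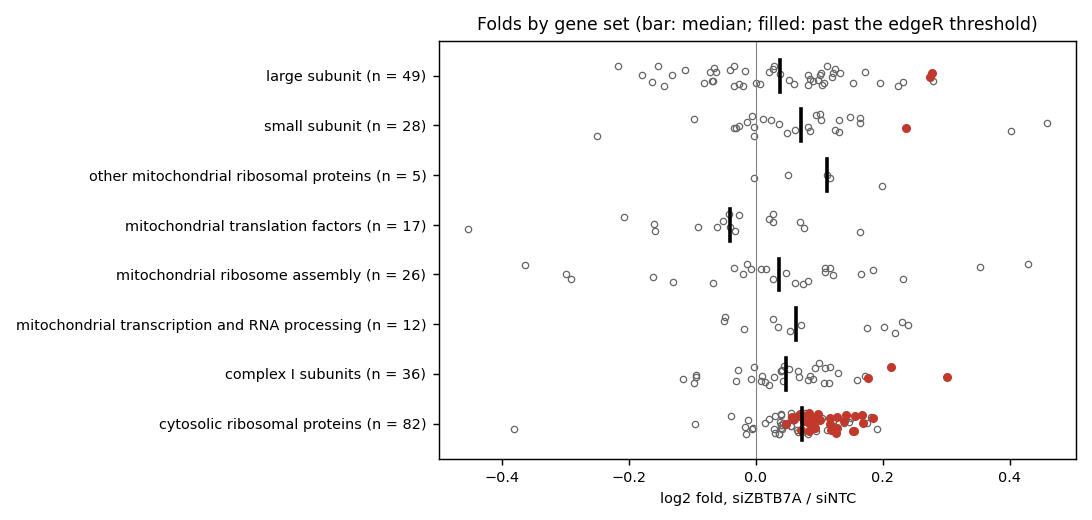
Log2 fold, siZBTB7A over siNTC, of the tested genes of each set, with the set's median as a black bar and genes past the edgeR threshold filled in red. The members' medians (0.04 and 0.07) lie among those of the other sets, and the filled points are mostly cytosolic ribosomal proteins, which have the deepest counts.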

How the data were processed

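RNA-seq counts were analysed for 2 tables of siNTC and 2 of siZBTB7A. The authors deposited whole-number read counts per gene, not normalized, in the layout of STAR gene counts. The submitters' processing notes name STAR 2.4.2a and the builds hg19 and GRCh37, and which annotation release was counted is not stated there. The count on the main strand, 24.9 to 25.5 times the other, was used. Rows that name no gene held 50.8% to 51.2% of reads and were left out. Among them, reads that mapped to several places were 24.5% and 24.4% of all reads in siNTC. In siZBTB7A they were 22.3% and 22.2%. Symbols, transcript lengths, GC content and exon overlap came from GENCODE 29, by Ensembl number (55698 of 60308 matched). It is on another build, so coordinates are given only for the RefSeq promoters, from GRCh38.p14.

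Tests used edgeR 4.0.16 in R 4.3.3 (robust quasi-likelihood, TMM factors, filterByExpr, Benjamini-Hochberg over 12848 genes, threshold 0.05). Folds are summed reads of siZBTB7A over siNTC, scaled by TMM-adjusted totals, with Clopper-Pearson 95% intervals. CPM uses the same totals. Alternatives were DESeq2 1.42.0, other scalings and filters, unstranded counts, the replicate number as a block, and leaving out each table. Python 3.11.15 was used for the rest.

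The members, lists and naming rule were chosen with earlier results of these data known. The rule named members past the test or not tested, the 5 deepest, 2 highest and 2 lowest folds of each subunit among those with 100 or more summed reads, and 7 members by role, 26 in all, with the 5 ribosomal proteins of other symbols, ZBTB7A and the mitochondrial ribosomal RNAs. MRPL14, MRPL41, MRPS2, MRPS11, MRPL46, MRPS31, the divergent partners and the genes named from the other lists were chosen after their values were seen. The GC and length correction left its transcript and weights open. It was run first with the longest principal transcript and weights from counts, then refitted with other transcripts and weights after its values had been seen, and all 5 versions are reported. Levels per kilobase first used the longest transcript, and were changed to the median-length one in the same way. Promoter letters were likewise counted 3 ways.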

Additional observations from a re-analysis of the deposited data

How the results depend on the processing

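The count of called members, 3, was 0 with DESeq2, 1 without TMM factors, and 0 to 1 when 1 table was left out (0 without siNTC replicate 1, 1 without each of the other tables). MRPS25 was the call without siNTC replicate 2 and without siZBTB7A replicate 1. Without siZBTB7A replicate 2 all 3 calls were lost and the 1 call was MRPS2 (log2 fold 0.28, edgeR adjusted p = 0.0490), which had an adjusted p of 0.184 with all tables. DESeq2 gave an adjusted p for only 14 of the members. MRPS25 was among them (DESeq2 adjusted p = 0.267), and MRPL57 and MRPL1 had none. Calls over all tested genes changed as well, to 105 with DESeq2 and 754 without TMM factors, against 639. They also fell in each run with 1 table left out, where 1 group held fewer reads. With the replicate number as a block the count of called members was 3 (654 of all genes, against 639). The numbers did not pair the tables, however (correlation of deviations -0.02 over 7461 genes). The count stayed within 1.5 times under the other planned settings apart from the correction below.

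The form of the correction for GC content and length decides whether the members lie above other genes. Members minus all genes was -0.025 and -0.014 log2 in the first 2 forms below and 0.029, 0.036 and 0.033 in the other 3. Its form was varied after its values were seen. As first run (longest transcript, count weights) it called 7 members, 3 higher and 4 lower, and 3 genes of the 4 pathway lists, with median log2 folds of -0.0054 (members), -0.027 (large) and 0.0073 (small), and called 870 of all genes. With the median-length transcript it called 6 members and 2 list genes, with medians of 0.0043, 0.0028 and 0.027 (994 genes in all). Adding 0.01 to the variance behind the weights gave 4 calls and medians of 0.030 and 0.023 for members and large subunit (383 genes). Equal weights gave 4 calls and a members' median of 0.040 (374 genes). Fitting without mitochondrially encoded genes, which held 19.1% of the count weights, gave 3 calls, 1 list gene and medians of 0.021, 0.0093 and 0.030 (397 genes). MRPS25 (higher) and MRPL41 (lower, and of the highest GC content among the members) were called in all 5 versions. MRPL57 was called in 4, MRPS27 (lower) in 3 and MRPL1 in 2. No version was preferred.

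Without TMM factors the medians were 0.017 (members), 0.0011 (large) and 0.036 (small), and 1 list gene was called. Leaving out 1 table gave members' medians of 0.039 to 0.066 and large subunit medians of 0.023 to 0.048. DESeq2 called 105 genes in all. Depth limits what can be seen: members with few reads have intervals wider than the folds discussed.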
